A study of Homo sapiens with 6 samples.

Results

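The genes that hold epithelial cells together were followed in SKOV3, an ovarian cancer cell line. They were chosen by symbol alone as protein-coding genes for cadherins and catenins of the adherens junction, desmosomal proteins, claudins and other tight junction proteins, apical polarity proteins, 4 keratins and EPCAM. This gave 58 genes, among 34834 that had at least 1 quantified transcript. Of these 58, 36 had enough counts to be tested, among 11814 genes tested in all.

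The study asked whether loss of the long non-coding RNA DNM3OS moves ovarian cancer cells towards an epithelial state. Cells were transfected with a pool of siRNA against DNM3OS (DNM3OS knockdown, 3 samples) or with non-targeting siRNA (non-targeting control, 3 samples). Both were used at 50 nM with a lipid reagent. RNA was taken after 48 h. All samples come from this single cell line. Neither the labels nor the methods state that the 3 samples of a group were separate cultures, so the p-values below concern these samples only. The edgeR p-values rest on variance estimates that share information between genes, not on the spread of each gene alone. DNM3OS has 6 annotated transcripts and 0 of them were quantified, so the knockdown itself is not checked in these values.

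Epithelial cells are joined by adherens junctions, in which cadherins bind each other across the gap and catenins tie them to actin, and by desmosomes, in which desmogleins and desmocollins are tied through plakophilins and desmoplakin to keratin filaments. Tight junctions, built from claudins and occludin over a scaffold of zonula occludens proteins, seal the layer near its apical side, where polarity complexes sit. In the epithelial-to-mesenchymal transition many of these genes are turned down, with E-cadherin (CDH1) as the most used marker, and the simple epithelial keratins KRT8 and KRT18 form a filament pair.

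Counts on genes ran from 1523046 to 1868325 per sample, and 3 counts in a sample corresponded to between 1.606 and 1.97 CPM (counts scaled to library size, here before TMM scaling). Knockdown 1 stood apart from the other samples. Its chi-square statistic per degree of freedom was 5.504 against control 2 and between 11.27 and 13.05 against the rest. Pairs without knockdown 1 lay between 2.035 and 4.584. The share of counts on 86 cytosolic ribosomal protein genes was 0.232%, 0.384% and 0.397% in knockdown 1, 2 and 3 and 0.543%, 0.320% and 0.524% in control 1, 2 and 3. Of the ovarian carcinoma markers, ERBB2 was found at 144.7 to 496.7 CPM and PAX8 at 12.1 to 26.2 CPM, while MUC16, MSLN and WT1 had at most 4 counts in any sample. Of 6 fibroblast, 5 endothelial and 5 leukocyte markers, 3, 1 and 3 were tested. Their summed counts ran from 55 to 100 and 55 to 80 (fibroblast), 26 to 67 and 29 to 47 (endothelial) and 146 to 228 and 156 to 163 (leukocyte) in knockdown and control. COL3A1, LUM and PDGFRB had at most 3 counts and TEK and CD14 had 0. However, PTPRC was counted at 91 to 148, PECAM1 at 24 to 62 and DCN at 29 to 58, and their part in any result was not tested.

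The transcripts that received the counts shape every value of the keratin KRT8 and of CDH1, and the sequences involved are shown here for that reason. The annotation gives KRT8 (minus strand) and KRT18 (plus strand) overlapping 5′ ends on chromosome 12. KRT8 received 84.7% of its counts on KRT8-207, a retained-intron transcript of 542 bases, of which 452 lie opposite KRT18 exons. Its exon 2 (chr12:52949216-52949517 of GRCh38, minus strand) is 302 bases long, and all 302 lie opposite the coding sequence of KRT18-201. The lines below give the end of exon 1 and the start of exon 2 of KRT8-207, with the exon 2 bases that face KRT18 coding sequence in capitals, and then the KRT18-201 coding strand over the same 120 bases (chr12:52949398-52949517, plus strand), both from GENCODE release 44 transcripts.
KRT8-207: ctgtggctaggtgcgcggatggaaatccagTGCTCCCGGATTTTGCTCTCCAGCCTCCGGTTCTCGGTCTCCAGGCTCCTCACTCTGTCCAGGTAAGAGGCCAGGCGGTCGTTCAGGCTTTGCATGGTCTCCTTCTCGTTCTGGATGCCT
KRT18-201: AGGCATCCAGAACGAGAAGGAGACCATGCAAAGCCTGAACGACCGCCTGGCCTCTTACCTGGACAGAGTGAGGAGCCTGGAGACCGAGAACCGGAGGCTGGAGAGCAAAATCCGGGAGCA
The 2 runs of capitals are the reverse complement of each other, so within this stretch the bases alone do not tell KRT8 from KRT18. Whether the quantifier used the strand of a read is not stated in the sources used here.

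For CDH1, 87.4% of the counts went to CDH1-210, annotated as a target of nonsense-mediated decay, and CDH1-201, the canonical transcript, was listed at 0 in all 6 samples. All 4138 bases of CDH1-210 are also in CDH1-201. CDH1-201 has 673 bases that CDH1-210 lacks. The only whole exon among them is exon 11 of CDH1-201 (chr16:68819280-68819425 of GRCh38, plus strand, 146 bases). That exon is given below in capitals, with 20 bases of the neighbouring exon on either side in lower case, also from GENCODE release 44.
CDH1-201: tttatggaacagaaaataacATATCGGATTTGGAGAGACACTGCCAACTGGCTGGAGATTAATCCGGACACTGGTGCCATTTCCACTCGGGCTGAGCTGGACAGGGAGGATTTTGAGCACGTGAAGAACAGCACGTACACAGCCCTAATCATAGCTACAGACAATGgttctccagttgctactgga
CDH1-210 had 52.6, 28.6 and 21.4 estimated counts in the knockdown and 27.0, 26.4 and 31.5 among the controls. These are few reads, and the assignment to a transcript without exon 11 is the quantifier's estimate in all 6 samples alike.

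None of the 36 tested genes passed the threshold of at least 2-fold and an adjusted p below 0.05 with edgeR's exact test and Benjamini-Hochberg adjustment. The number of these genes called lower was 0 and called higher 0, where over all genes tested 0.00846% were called lower (1 gene, the read-through gene BORCS7-ASMT) and 0% higher. At an unadjusted p below 0.05 there were 0 of 36, against 2.92% of all genes tested, and DESeq2 and edgeR's quasi-likelihood test also called 0. In 0 of 36 genes did the 3 knockdown values all lie on one side of the 3 control values, against 7.97% of all genes (4.42% with the knockdown higher and 3.56% with it lower). The fitted level was higher in the knockdown for 17 of 36 (all genes 50.6%), and the median log2 fold change was −0.013 beside 0.0042 over all genes tested. The adjusted p was 1 for each of the 36 genes by this exact test. The standard error of a log2 fold change, from the spread between replicates (n = 3 and 3), had a median of 0.37 and ran from 0.099 to 0.976, so changes of the size of 2-fold lay within about 1 standard error for the noisiest genes.

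**Figure D1:**
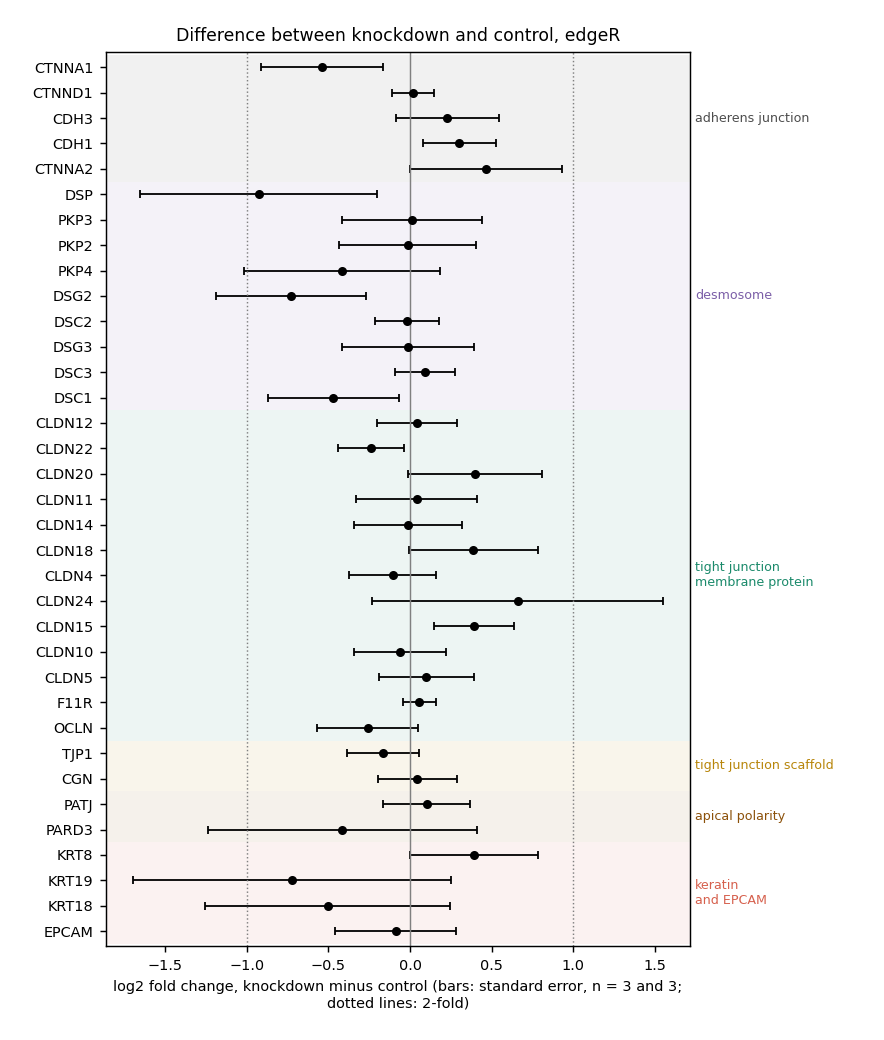
Log2 fold change (knockdown minus control) of 35 tested junction, polarity and keratin genes, by role and with the most abundant gene of each role first; bars are standard errors (n = 3 and 3) and dotted lines mark a 2-fold change. All 35 points lie between −0.93 (DSP) and 0.66 (CLDN24), inside the dotted lines.

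Leaving out 1 sample changed how many genes had groups that did not overlap. The number was 1 without knockdown 1 (18.1% of all genes in that comparison), 5 without knockdown 2 (18.6%) and 3 without knockdown 3 (17.9%). It was 3 without control 1 (12.8%), 10 without control 2 (27.8%) and 2 without control 3 (13.8%). It was highest without control 2, as was the share over all genes, and 0 of the junction and keratin genes were called in any of these comparisons.

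Adherens junction genes comprised 6 members, of which 5 were tested, with 4 higher and 1 lower in the knockdown and 0 called. CDH1, the E-cadherin gene, was at 27.4, 25.7 and 16.8 CPM in the knockdown and 17.1, 19.0 and 21.2 CPM in the controls. Knockdown 1 and 2 were above all controls and knockdown 3 was below them. Its log2 fold change was 0.30 ± 0.22 (SE, n = 3 and 3), with a two-sided exact permutation p of 0.4, where 0.1 is the smallest that 3 against 3 allows. With a sample left out the log2 fold change was 0.17 (without knockdown 1) to 0.48 (without knockdown 3). CDH3, the P-cadherin gene, neighbours CDH1 on chromosome 16 and ranged from 12.2 to 22.8 CPM in the knockdown and from 10.8 to 17.7 CPM in the controls. For CDH3 the fold change was 0.23 ± 0.32 on the log2 scale, and it turned to −0.03 without knockdown 1.

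The catenins that link cadherins to actin did not move together. CTNNA1, which encodes αE-catenin, was at 45.6, 89.8 and 79.99 CPM in the knockdown and 123.6, 73.3 and 114.1 CPM in the controls. Controls 1 and 3 were above all knockdown samples and control 2 lay among them. The log2 fold change of CTNNA1 was −0.54 ± 0.38 (unadjusted p of 0.0852 by the edgeR exact test, adjusted p of 1), and −0.28 without knockdown 1. The exact permutation p of CTNNA1 was 0.3. On the length-normalised TPM scale CTNNA1 had the second highest level of all members, 275.7 ± 53.8 TPM (SD, n = 6), but its counts were spread over many transcripts and only 1.52% were on the canonical one. The largest share, 21.2%, was on CTNNA1-230, of 2741 bases and annotated as a target of nonsense-mediated decay. CTNNA1-230 had 0, 30.6 and 23.0 counts in the knockdown and 84.2, 14.8 and 31.0 in the controls. With TPM in place of counts the log2 fold change of CTNNA1 was −0.18. CTNND1, which encodes p120-catenin and stabilises cadherins at the surface, was nearly equal in both groups at 43.0 ± 3.9 CPM and 42.3 ± 5.3 CPM (SD, n = 3 each). CTNNA2, the neural αN-catenin gene, was at 5.6 to 16.7 CPM and 6.3 to 11.1 CPM, and CTNNA3 had 0 counts in all samples, which allows up to 3 counts in each.

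Desmosome genes comprised 13 members, of which 9 were tested, with 2 higher and 7 lower in the knockdown, a median log2 fold change of −0.02, and 0 called. DSP, which encodes desmoplakin, the plaque protein that anchors keratin filaments, was at 19.5, 52.7 and 73.7 CPM in the knockdown. In the controls DSP was at 130.4, 43.9 and 101.2 CPM. The lowest value was in knockdown 1 and the highest in control 1, and control 2 lay below knockdown 2 and 3. Its log2 fold change of −0.93 ± 0.73 was the largest decrease among the 36 genes (unadjusted p of 0.0552 and adjusted p of 1 by the edgeR exact test). The exact permutation p of DSP was 0.3. Without knockdown 1 the log2 fold change was −0.53. On the log2(TPM + 1) scale it was −0.14. That smaller value goes with a short retained-intron transcript of 754 bases, DSP-203, whose counts were 11.6, 6.8 and 5.0 in the knockdown and 3.6, 3.5 and 6.1 in the controls, while the 9697-base DSP-201 held 87.1% of DSP counts.

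DSG2, the desmoglein made in nearly all tissues with desmosomes, was at 12.6, 17.6 and 21.1 CPM in the knockdown and 39.3, 14.4 and 30 CPM in the controls. Its samples stood in the same order as those of DSP. The log2 fold change of DSG2 was −0.73 ± 0.46 (unadjusted p of 0.0804 and adjusted p of 1 by the edgeR exact test), and −0.53 without knockdown 1. The exact permutation p of DSG2 was 0.3. DSC2, the desmocollin partner, differed little, with 18.1, 20.3 and 20.4 CPM in the knockdown and 24.5, 15.1 and 19.4 CPM in the controls (log2 fold change −0.02 ± 0.20). All DSG2, DSG3 and DSC2 counts were on the canonical transcript.

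The plakophilins, which bind desmoplakin to the desmosomal cadherins, were low. PKP2 and PKP3 lay between 7.65 and 22.4 CPM in every sample, with log2 fold changes of −0.01 ± 0.42 and 0.01 ± 0.43. PKP4 had 5 to 22 counts (log2 fold change −0.42 ± 0.60). The cadherins typical of stratified epithelia were near the limit of the depth. DSG3, DSC3 and DSC1 had at most 21 counts in any sample, with log2 fold changes of −0.01 ± 0.40, 0.09 ± 0.18 and −0.47 ± 0.40. JUP, which encodes plakoglobin and is shared by adherens junctions and desmosomes, had 2 to 7 counts and was not tested, and DSG1, DSG4 and PKP1 had at most 1.

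**Figure D2:**
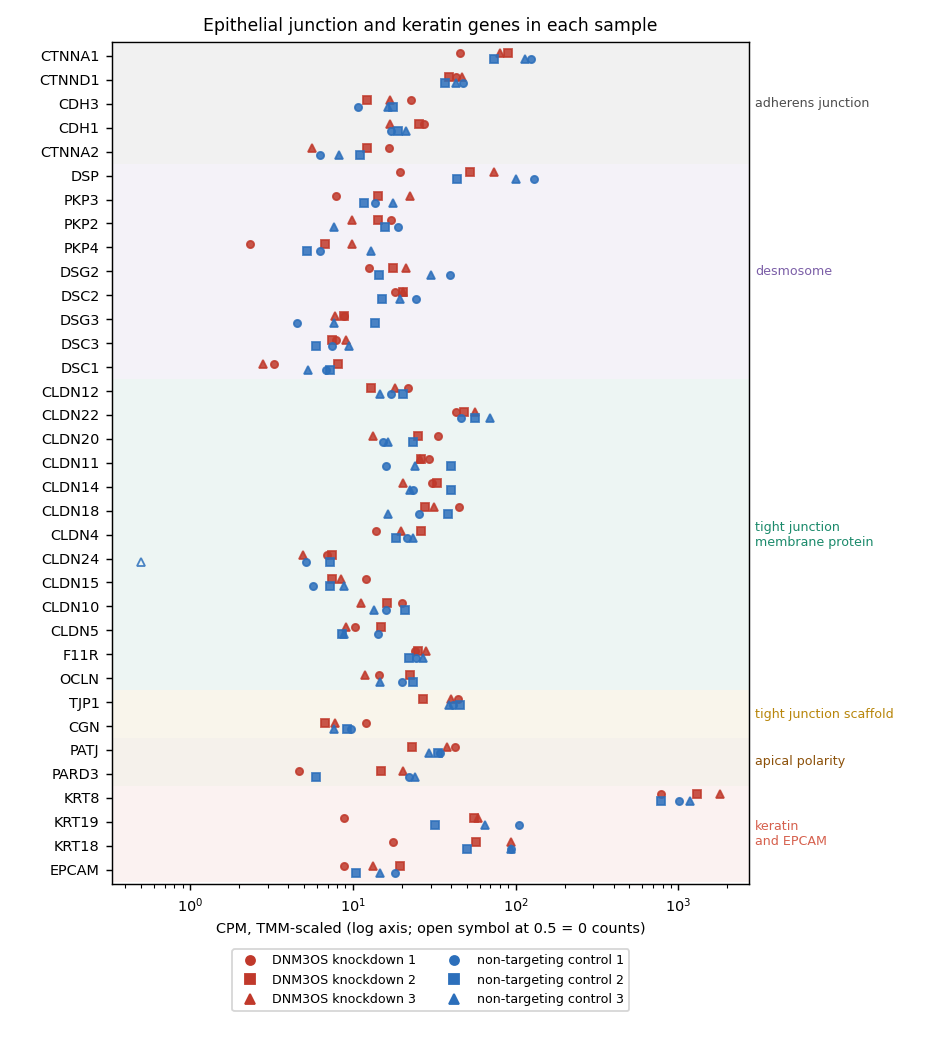
TMM-scaled CPM (log axis) of 35 tested genes in each of the 6 samples, with knockdown in red and control in blue and the replicate number as the symbol; an open symbol marks 0 counts. In every row the red and blue symbols overlap, and KRT8 lies above all other genes.

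Tight junction membrane proteins comprised 27 members, of which 13 were tested, with 8 higher and 5 lower and 0 called. F11R, which encodes junctional adhesion molecule A, was at 24.2, 24.99 and 28.1 CPM in the knockdown and 24.5, 22.3 and 27.1 CPM in the controls (log2 fold change 0.06 ± 0.10), with the smallest standard error of the tested junction and keratin genes. At the transcript level F11R was not even. All its counts were on F11R-206 in knockdown 1, 2 and 3 and control 3, and on F11R-202 in controls 1 and 2. These transcripts share 4579 bases, with 191 found only in the first and 60 only in the second, so most reads of either cannot be told apart.

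OCLN, which encodes occludin, was at 14.4, 22.3 and 11.9 CPM in the knockdown and 19.9, 23.6 and 14.7 CPM in the controls (log2 fold change −0.26 ± 0.31). Knockdown 3 was the lowest sample and control 2 the highest, and the groups overlapped. CLDN4, a claudin abundant in ovarian carcinoma, was at 13.9, 26.3 and 19.6 CPM and at 21.6, 18.3 and 23.5 CPM (−0.11 ± 0.27 on the log2 scale). CLDN3, its neighbour on chromosome 7, had 1 to 10 counts, CLDN7 had 2 to 7 and CLDN1 had 1 to 9, and none of these was tested.

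CLDN18, known from stomach and lung, was at 45.1, 27.7 and 31.6 CPM in the knockdown and 25.6, 38.6 and 16.5 CPM in the controls (log2 fold change 0.39 ± 0.40), and its fold change was 0.15 without knockdown 1. CLDN24 had the largest increase, 0.66 ± 0.89, on 15, 11 and 7 counts against 9, 11 and 0. The 0 in control 3 set this value, which was 0.07 without that sample. CLDN15 was at 7.43 to 12.1 CPM and 5.70 to 8.82 CPM (0.39 ± 0.24, and 0.14 without knockdown 1), with 70.0% of its counts on a retained-intron transcript. CLDN12 had the highest TPM of the claudins, 87.3 ± 20.4 (SD, n = 6) with most of its counts on transcripts of 342 and 674 bases. Its log2 fold change was 0.05 ± 0.24 on counts and −0.17 on log2(TPM + 1).

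Several claudin genes lie opposite or inside other genes. The whole CLDN22 transcript is opposite exons of WWC2, and CLDN22 was at 42.8, 47.95 and 56.1 CPM in the knockdown and 46.1, 56.3 and 70.0 CPM in the controls (−0.24 ± 0.20). CLDN20 lies within TFB1M on the other strand and was at 13.3 to 33.5 CPM and 15.4 to 23.6 CPM (0.40 ± 0.41). Its log2 fold change was 0.074 without knockdown 1 and 0.68 without knockdown 3. For CLDN10, 58.7% of the counted transcript is opposite exons of DZIP1 (−0.06 ± 0.28). The libraries were made with a kit that keeps strand, and the strand option given to the quantifier is not stated in the sources used here. For these genes the share of counts from the opposite gene was not tested. The option holds for reads of every gene, and whether it affected genes without such overlap was not tested either. Leaving out every gene with exons opposite those of another gene, which keeps CLDN20, left 23 tested genes with a median log2 fold change of 0.02 and 0 with groups apart.

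CLDN11 (0.04 ± 0.37), CLDN14 (−0.01 ± 0.33) and CLDN5 (0.10 ± 0.29) completed the tested claudins, each below 40 CPM in every sample. The other 14 members of this class had at most 16 counts in a sample. Of these, CLDN8, CLDN17, CLDN25 and CLDN34 had 0 in all 6. Summed levels of tight junction membrane genes were highest in knockdown 1 and control 2, at 0.0383% and 0.0353% of counts, and 0.0267% to 0.0290% in the other samples.

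Scaffold genes of the tight junction were followed next. TJP1, which encodes ZO-1, the protein that ties claudins and occludin to actin, was at 44.2, 27.0 and 40.0 CPM in the knockdown and 41.0, 45.8 and 38.8 CPM in the controls. Apart from the low knockdown 2 the samples were close, and the log2 fold change was −0.16 ± 0.22. CGN, for cingulin, had 10 to 26 counts (0.04 ± 0.24). Among polarity genes, PATJ was at 42.3, 23.0 and 37.9 CPM and 34.2, 33.4 and 29.4 CPM (0.10 ± 0.27). PARD3, at the centre of the PAR complex, was at 4.65, 14.9 and 20.4 CPM and 22.2, 5.89 and 24.1 CPM (−0.42 ± 0.82), low in knockdown 1 and control 2. TJP3 and CRB3 had at most 15 and 11 counts.

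Keratins and EPCAM comprised 5 members, of which 4 were tested, with 1 higher and 3 lower in the knockdown and 0 called. KRT8 was by far the most abundant member. Its level was 3048, 4190 and 5740 TPM in the knockdown and 3252, 2613 and 3870 TPM in the controls. In CPM it was at 783, 1310 and 1801 against 1006, 782 and 1177, highest in knockdown 3. The log2 fold change was 0.39 ± 0.39 (unadjusted p of 0.221 and adjusted p of 1 by the edgeR exact test) with groups that overlapped. It was 0.66 without knockdown 1 and 0.082 without knockdown 3.

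Of the KRT8 counts 99.7% were on the 7 KRT8 transcripts that overlap KRT18 exons over at least part of their length. The other 9 transcripts together had 0.0, 13.4 and 3.3 counts in the knockdown and 8.0, 1.2 and 3.1 in the controls. The 3 main transcripts did not follow each other. KRT8-207, whose sequence is given above, had 1481, 1645 and 2215 counts in the knockdown and 1424, 1010 and 1675 in the controls. KRT8-212, of 592 bases, had 137.6, 126.8 and 149.7 against 88.8, 89.1 and 76.5, in counts that are not scaled to depth. KRT8-216, a protein-coding transcript of 2126 bases, had 65.3, 148.9 and 195.1 against 246.6, 95.1 and 232.3, also unscaled. In unscaled counts this is the sample order of DSP and KRT19, and it was not established for KRT8-216 in CPM. With protein-coding transcripts alone, an alternative chosen after the data were seen, the log2 fold change of KRT8 turned to −0.31. The direction of KRT8 thus depended on whether transcripts of other classes, such as KRT8-207 and KRT8-212, were counted, and how many of their counts came from KRT18 RNA was not tested.

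**Figure D3:**
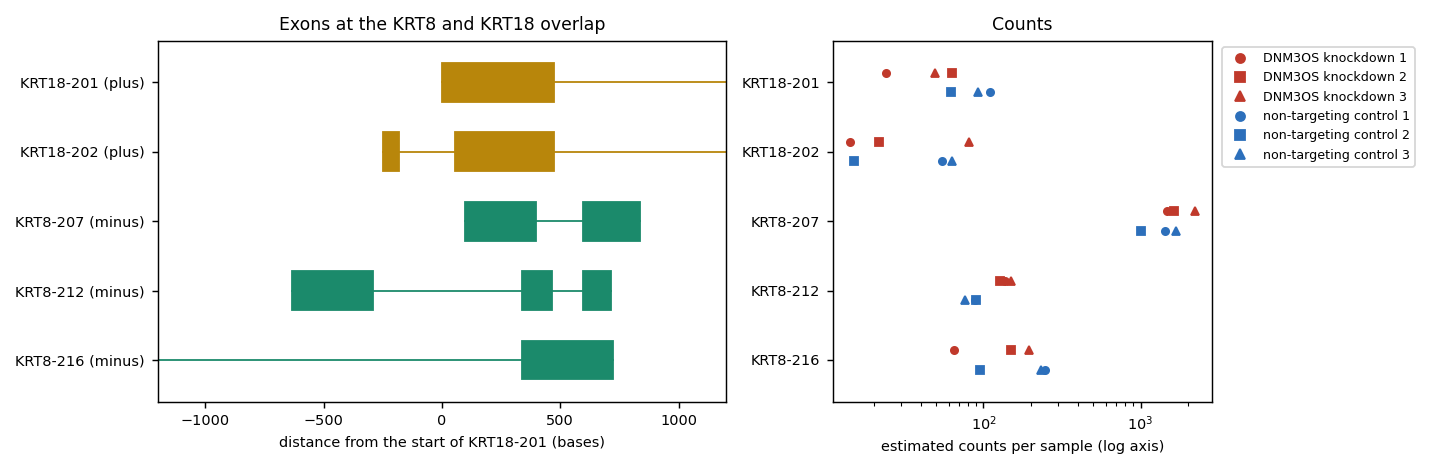
Left, exons of 2 KRT18 transcripts (plus strand) and the 3 KRT8 transcripts with most counts (minus strand) by distance in bases from the start of KRT18-201, cut off at 1200 bases. Right, estimated counts of each transcript in each sample (log axis). KRT8-207 holds 1010 to 2215 counts per sample, more than any other transcript drawn, and its left exon lies within the first exon of KRT18-201.

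KRT18, the filament partner of KRT8, had far fewer counts, at 17.7, 57.4 and 94.0 CPM in the knockdown and 94.0, 50.4 and 94.1 CPM in the controls. Knockdown 1 was the lowest and knockdown 3 equalled controls 1 and 3. Its log2 fold change of −0.50 ± 0.75 shrank to −0.06 without knockdown 1. KRT19, a further keratin of simple epithelia, was at 8.84, 55.4 and 58.9 CPM in the knockdown and 104.8, 32.1 and 65.3 CPM in the controls. It varied more than any other tested member and its log2 fold change was −0.72 ± 0.98, or −0.23 without knockdown 1. On the TPM scale KRT19 and KRT18 had nearly the same level, 70.1 ± 44.3 and 69.8 ± 32.4 (SD, n = 6), and cannot be ranked. EPCAM, the epithelial cell adhesion molecule, was at 8.84, 19.6 and 13.3 CPM and 18.2, 10.5 and 14.7 CPM (−0.09 ± 0.37). KRT7, a keratin typical of ovarian carcinoma, had 4 to 12 counts and was not tested.

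The genes with the largest decreases shared a sample order. DSP, DSG2 and KRT19 each stood in the same order as the ribosomal protein share, with knockdown 1 lowest, then control 2, knockdown 2, knockdown 3, control 3 and control 1. This exact order was found in 3 of 36 junction and keratin genes and in 2.23% of all genes tested, and the opposite order in 0 of 36 and in 0.83%. CTNNA1 differed from it by the exchange of knockdown 2 and 3, and KRT18 in its 3 highest samples. Control 1 exceeded knockdown 1 by 6.67-fold for DSP, 3.13-fold for DSG2, 11.9-fold for KRT19, 5.32-fold for KRT18 and 2.71-fold for CTNNA1, beside 2.34-fold for the ribosomal protein share itself. With that share as a covariate in the quasi-likelihood fit, the log2 fold changes became 0.07 for DSP, 0.02 for DSG2, 0.41 for KRT19, 0.27 for KRT18 and −0.03 for CTNNA1. These genes were taken up here because their sample order was that of the share or close to it. A smaller or reversed change in this fit therefore follows in part from that choice. The mean of the share was itself lower in the knockdown, as for these genes, so the share and the knockdown cannot be told apart here. Among all 36 genes, 11 were lowest in knockdown 1 (all genes 29.8%), 8 were highest in control 1 (19.8%), 4 were both (10.9%), and 9 were highest in knockdown 1 (28%), all near the shares over all genes.

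**Figure D4:**
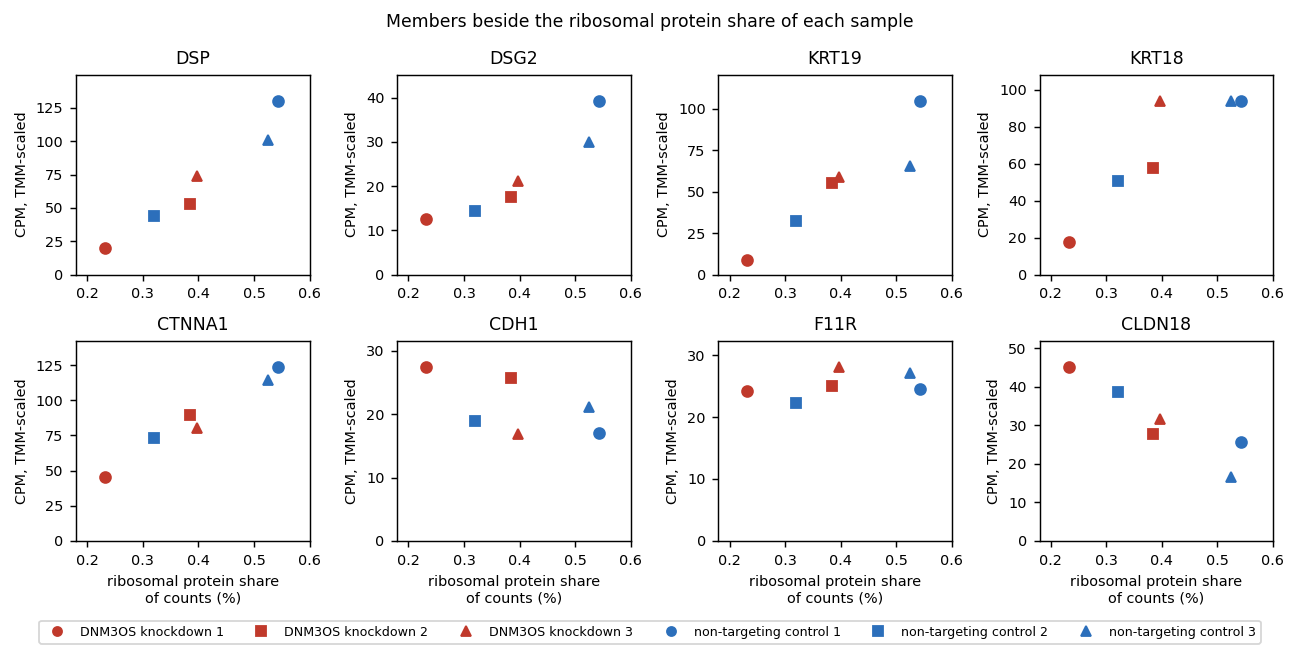
CPM of 8 junction and keratin genes against the ribosomal protein share of counts in each of the 6 samples, with knockdown in red and control in blue. DSP, DSG2, KRT19, KRT18 and CTNNA1 are lowest in knockdown 1, which has the lowest share (0.232%), while CDH1 and CLDN18 are highest there and F11R stays between 22.3 and 28.1 CPM.

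The transcript class behind the counts differed from gene to gene. Summed over the 58 members, 49.5% of the counts were on retained-intron transcripts, against 12.4% over all protein-coding genes. Without KRT8 this share was 6.62% and the share on protein-coding transcripts 78.4% (all protein-coding genes 66.2%). The canonical transcript held over 50% of the counts in 10 of 36 tested genes and under 5% in 15 of 36. The former were DSP, DSG2, DSG3, DSC2, KRT18, KRT19, CDH3, CLDN20, CLDN22 and CLDN24, and 7 of these 10 were lower in the knockdown. The latter included CDH1, CTNNA1, CTNND1, OCLN, TJP1 and KRT8, and 7 of these 15 were lower. Gene-level values of this last group rest on transcripts other than the canonical one. Among the 7 lower of 10, DSG3 and DSC2 were near 0 (−0.01 and −0.02), and DSP, DSG2, KRT18 and KRT19 were lowest in knockdown 1. The counts of lower genes in these classes were not set beside a share over all genes.

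**Figure D5:**
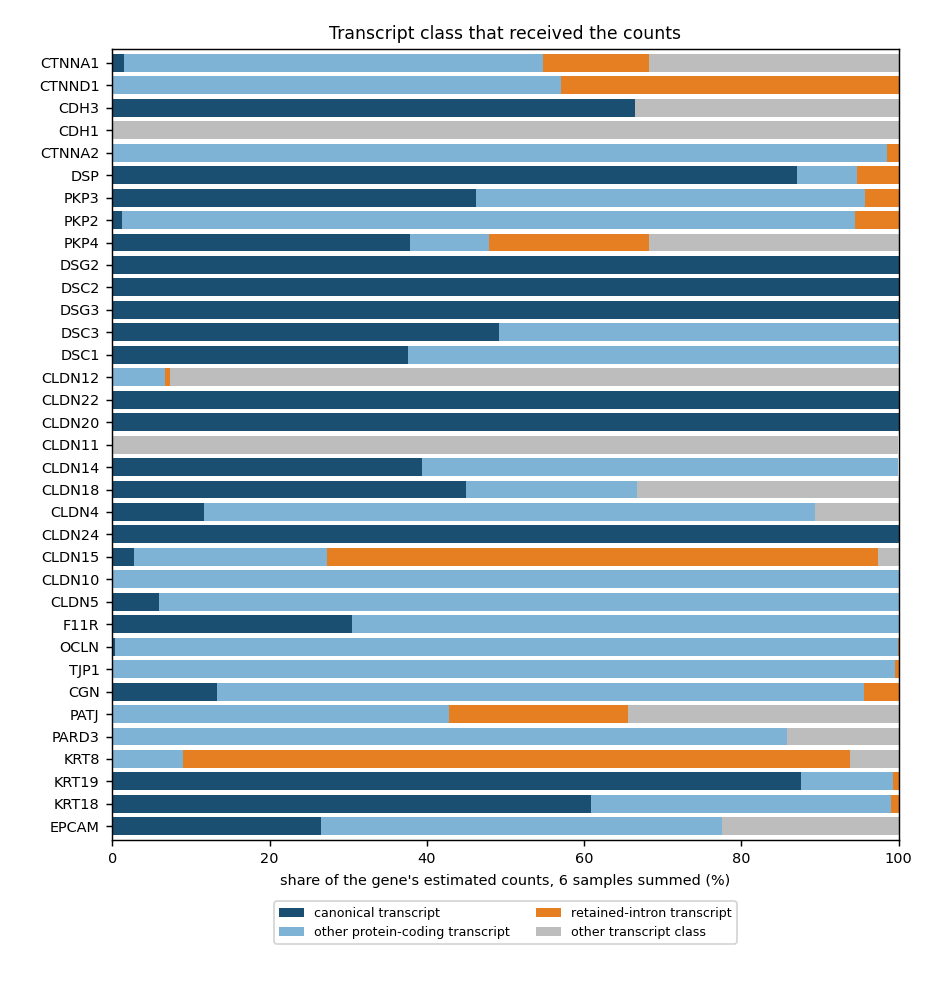
Share (%) of the estimated counts of 35 tested genes, summed over 6 samples, on the canonical transcript, other protein-coding transcripts, retained-intron transcripts and other classes. KRT8 is mostly retained intron (84.7% on KRT8-207), CDH1 has no canonical or other protein-coding share, and DSG2, DSG3 and DSC2 are wholly canonical.

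Genes around this set were read from the same fit. Of 39 other junction and polarity genes 25 were tested, with 11 higher, 14 lower and 0 called. In 3 of these 25 the groups did not overlap, beside the 7.97% over all genes. JAM2, a junctional adhesion molecule, was at 81.9, 70.2 and 74.4 CPM against 70.1, 59.6 and 56.5 (0.29 ± 0.11). PARD6G, a polarity adaptor, was at 64.6 to 76.8 CPM against 54.1 to 63.5 (0.23 ± 0.10). SCRIB, the basolateral polarity scaffold, was lower on 5 to 20 counts (−0.90 ± 0.43, unadjusted p of 0.0865 by the edgeR exact test). Its mean TPM was nearly equal, 3.75 in the knockdown and 3.73 in the controls. VCL, for vinculin, had the highest mean CPM of this list, at 102.8 to 158.4 CPM over the 6 samples (−0.07 ± 0.20).

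Of 19 epithelial state genes 12 were tested, with 7 higher, 5 lower and 0 called. GRHL2, a transcription factor that maintains epithelial genes including CDH1, was at 15.8, 12.8 and 9.12 CPM in the knockdown and 5.13, 10.5 and 5.88 CPM in the controls. Only control 2 overlapped the knockdown samples, and the log2 fold change was 0.84 ± 0.34 (unadjusted p of 0.0550 and adjusted p of 1 by the edgeR exact test); this gene was singled out after its values were seen. So were 2 lower genes with larger errors, MAL2 (−0.92 ± 0.86) and KLF5, a transcription factor (−0.86 ± 0.56). SPINT2, an inhibitor of serine proteases, was at −0.40 ± 0.33 on the log2 scale. ELF3 (0.02 ± 0.43) and ESRP2, an epithelial splicing regulator (0.12 ± 0.16), were nearly equal. Of 6 repressors of epithelial genes 4 were tested, with 3 higher, 1 lower and 0 called. ZEB1, which represses CDH1, was at 35.8, 52.7 and 69.5 CPM against 46.1, 36.0 and 64.7 (0.09 ± 0.36). Of 51 other keratin genes 3 were tested, KRT10, KRT80 and KRT15, with 0 called, and 30 had 0 counts in all 6 samples.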

How the data were processed

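RNA sequencing of 6 SKOV3 samples (3 DNM3OS knockdown, 3 non-targeting control, grouped by their labels) was analysed. Per the labels, a stranded kit was used on total RNA after removal of ribosomal RNA. The authors ran kallisto 0.43.0 on GRCh38 transcripts. The deposited values are an estimated count, without normalization, and a TPM (length-normalised) for each of 173259 transcripts. The strand option is not given in the sources used here. Of these transcripts, 155518 matched GENCODE release 44, and the other 17741 (4.79% to 6.38% of counts) were left out.

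For each gene the estimated counts of its transcripts were added up and rounded. Genes were filtered with filterByExpr (minimum count 10), scaled by TMM and tested with the edgeR 4.0.16 exact test in R 4.3.3 with Benjamini-Hochberg adjustment, at 2-fold and an adjusted p below 0.05. The exact test follows the study's methods, while the filter and the TMM scaling were chosen here. CPM uses TMM-scaled library sizes. Standard errors use the replicates' spread in log2 CPM with a prior count of 2, and permutation tests are exact and two-sided. TPM was tested with limma 3.58.1 on log2(TPM + 1) and log2(TPM + 0.1), which understates changes of low genes. Counting error alone sets the floor of 3 counts. The genes, lists, roles and alternatives were chosen with earlier results of these data known. Within each role, up to 8 tested genes with the highest TPM are named with values, and the rest by values or range. On counts simulated for this comparison, 199 of 200 genes changed by 2 on the log2 scale were recovered, 0 in the wrong direction, with 22 other calls among 11814 genes. The changed genes were drawn only above a minimum mean count, close to the 31.2 counts of the median tested junction or keratin gene. Recovery of changes near 2-fold, or of genes with fewer counts, was not simulated. DESeq2 1.42.0, quasi-likelihood fits, other filters and normalizations, and leaving out each sample were alternatives. The values of 1 tested gene are not reported here.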

Additional observations from a re-analysis of the deposited data

How the results depend on the processing

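The number of junction and keratin genes called lower or higher was 0 under every alternative run, and 0 fits gave any of them an adjusted p below 0.05. Over all genes the number called lower was 1, and it was 0 with DESeq2, both quasi-likelihood fits, the ribosomal protein share as covariate and limma on TPM, 2 with no filter or with at least 1 CPM in 3 samples, 3 with length-scaled TPM counts or protein-coding transcripts only, 4 with transcripts outside the annotation kept, and 0 to 3 with a sample left out. The number called higher was 0, but 1 with transcripts outside the annotation kept, 2 with protein-coding transcripts only and 0 to 1 with a sample left out. Genes with groups apart numbered 1 with no filter or the CPM filter, where more genes were tested, and 1 to 10 with a sample left out. The share over all genes is not given here for the filter settings. Of the genes not tested in the main fit, CLDN16 had values apart, at 6.05, 6.08 and 11.2 CPM in the knockdown and 5.13, 5.24 and 4.71 CPM in the controls. The median log2 fold change of the tested genes was −0.013, and 0.11 with length-scaled TPM counts. Of 36 genes, 7 kept one direction under every alternative fitted to them, 18 for CDH1 and CLDN15, which had no value with protein-coding transcripts only, and 19 for the others, higher for CDH1, CLDN24 and CLDN15 and lower for CTNNA1, DSC1, CLDN22 and OCLN. The cause of the other changes was not tested.

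The log2 fold changes that changed sign were as follows, none of them called. With the ribosomal protein share as covariate they were −0.13 for CDH3, −0.086 for CTNNA2, 0.023 for DSG2, 0.26 for DSC2, 0.36 for PKP4, 0.069 for DSP, −0.084 for CLDN18, −0.36 for CLDN11, −0.086 for CLDN20, 0.21 for CLDN4, −0.23 for CLDN12, −0.23 for CGN, 0.96 for PARD3, −0.064 for PATJ, 0.27 for KRT18, 0.41 for KRT19 and 0.44 for EPCAM. With length-scaled TPM counts they were −0.071 for CTNND1, 0.51 for PKP4, 0.27 for CLDN4, −0.12 for CLDN12 and 0.29 for EPCAM. With limma on log2(TPM + 1) they were −0.0010 for CTNNA2, −0.076 for CTNND1, 0.052 for DSG3, 0.00070 for DSC2, 0.056 for PKP2, 0.11 for PKP4, 0.35 for CLDN4, −0.17 for CLDN12, −0.025 for CGN and 0.33 for EPCAM. With a pseudocount of 0.1 these became −0.016, −0.077, 0.11, 0.0084, 0.068, 0.064, 0.39, −0.17, −0.038 and 0.35. With protein-coding genes only they were 0.0027 for DSG3, 0.0013 for DSC2, 0.0072 for PKP2 and 0.0032 for CLDN14. With protein-coding transcripts only, chosen after the data were seen, they were 0.039 for DSG3, 0.051 for DSC2, 0.051 for PKP2, −0.012 for PKP3, 0.0033 for CLDN10, 0.043 for CLDN14, −0.31 for KRT8 and 0.13 for EPCAM.

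With a sample left out, the ranges that crossed 0 were −0.033 to 0.42 for CDH3, −0.27 to 0.20 for CGN, −0.27 to 0.13 for CLDN10, −0.23 to 0.46 for CLDN11, −0.15 to 0.22 for CLDN12, −0.17 to 0.31 for CLDN14, −0.36 to 0.13 for CLDN4, −0.12 to 0.38 for CLDN5, −0.062 to 0.10 for CTNND1, −0.16 to 0.17 for DSC2, −0.039 to 0.27 for DSC3, −0.33 to 0.48 for DSG3, −0.42 to 0.19 for EPCAM, −0.0021 to 0.12 for F11R, −0.87 to 0.019 for PARD3, −0.080 to 0.32 for PATJ, −0.32 to 0.26 for PKP2, −0.41 to 0.35 for PKP3, −0.90 to 0.026 for PKP4 and −0.31 to 0.015 for TJP1. Among those that stayed on one side of 0 were −0.74 to −0.28 for CTNNA1, 0.083 to 0.78 for CTNNA2, −1.05 to −0.21 for DSC1, −1.36 to −0.53 for DSP, −0.54 to −0.094 for OCLN, −1.10 to −0.063 for KRT18 and −1.09 to −0.23 for KRT19.

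Samples with the same replicate number did not deviate together. The correlations of their deviations over genes were −0.40, −0.34 and 0.23, so the numbers were not taken as a pairing. For a knockdown and a control with unlike numbers they ran from −0.41 (knockdown 3 and control 2) to 0.53 (knockdown 1 and control 2). Where the quasi-likelihood fit took the replicate number as a block, 0 genes were called in either direction, and the log2 fold changes that changed sign were 0.074 for DSG3, 0.0035 for DSC2, 0.0022 for PKP2, −0.040 for PKP3 and −0.011 for CGN. Depth limits most of these genes, since the median tested gene had a mean of 31.2 counts and only 4 of 36 had over 100.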
